A study of Mus musculus with 11 samples.

Results

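Mouse genes named Gm and a number are predicted genes that have not been given a functional name, and 74 of them that carry neighbouring gene identifiers are described here. They were chosen as the rows of the deposited table whose symbol is Gm and digits, with a gene identifier from 1 block of neighbouring numbers, and which hold a value in every library, with Gm15448 left out. They are 74 of the 1141 genes with a value in every library. A further 35 genes met the naming rule but were blank in some libraries. Of these, 16 were blank in CKO libraries 9 and 10, 16 had values in control libraries 4 to 6 alone, and 3 were blank in both groups' libraries 1 to 3. The highest expected read count among them was 4.19.

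RNA was sequenced from cardiac fibroblasts taken from the injured left ventricle of mice 3 days after myocardial infarction, which all groups share. The control group had 6 libraries: 1 to 3 are labelled wild type, Pw1fl/+ or Pw1fl/fl, and 4 to 6 are labelled Pw1 fl/fl. The CKO group had 5 libraries in which Cre recombinase under Pdgfra regulatory sequence acts on the floxed imprinted gene Pw1, also called Peg3. CKO libraries 1 to 3 are labelled Pdgfra-Cre;Pw1fl/fl, and the other two, which the table numbers 9 and 10, carry the label PDGFRa Cre+;Pw1 fl/fl. Cells that do not express Pdgfra would keep the gene, and the animals' ages and the number of mice behind each library are not given, so p-values measure the spread between these libraries, which may be technical. The genes held here took 611436 to 637764 expected reads in each control library and 535048 to 596412 in each CKO library. Peg3 itself and the 7 fibroblast markers that were looked for were not analysed here, so the deletion and the cell type could not be checked.

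Many predicted genes arise by duplication, in which a stretch of genome is copied and the copy keeps nearly the letters of its parent. Some copies still make a protein, and others have decayed into pseudogenes. A short read from a stretch that parent and copy share has no single origin, and a program such as RSEM divides such reads between the copies by estimated likelihood, so that expected counts need not be whole numbers. The on and off states of such a gene therefore describe the reads assigned to it. In RNA from many cells, fewer cells of a type and less RNA per cell cannot be told apart.

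Of the 74 genes, RefSeq lists 68 as protein coding, 5 as transcribed pseudogenes and 1 as a long noncoding RNA. Chromosome 14 holds 27 of them, chromosome 4 holds 8, and chromosomes 2 and 7 hold 7 each. A transcript in GENCODE release M21 was found for 64, 53 by gene identifier and 11 by symbol. Every run of 50 letters (a k-mer) in those transcripts was looked up, on both strands, in the transcripts of all other genes. The median gene shared 88.5% of its k-mers with some other gene and 73.7% with the 1 gene that shared most, called its closest copy below. The closest copy shared at least 50% for 50 genes, and it lay on the same chromosome for 48 of these. It was a gene with a functional name for 15 of the 50.

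Of the called genes, 7 are shown here beside close copies, as 60-letter stretches of transcript in GRCm38, 5′ to 3′ on the strand of the gene. Letters that differ within a set are in capitals. Each stretch was picked as a close match that held differing letters where possible, so its differences do not measure how alike the genes are. Gm2260 (chr14:26016431-26016490, plus strand) and Gm2274 (chr14:26156045-26156104, plus strand) hold letters that also stand in coding exon 8 of Anxa11 (chr14:25876661-25876720, plus strand). Anxa11 encodes annexin A11, which binds phospholipids in the presence of calcium. The 3 stretches do not differ:
Gm2260: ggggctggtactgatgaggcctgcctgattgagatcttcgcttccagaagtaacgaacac
Gm2274: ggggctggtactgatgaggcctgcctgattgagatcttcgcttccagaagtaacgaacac
Anxa11: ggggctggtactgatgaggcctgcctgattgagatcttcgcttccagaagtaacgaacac
Gm2436 (chr12:55150948-55151007, minus strand) and Gm2446 (chr12:55226012-55226071, minus strand) match each other and differ at 1 position from coding exon 8 of Ppp2r3c (chr12:55289732-55289791, minus strand), which encodes a regulatory subunit of protein phosphatase 2A:
Gm2436: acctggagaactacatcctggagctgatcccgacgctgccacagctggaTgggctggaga
Gm2446: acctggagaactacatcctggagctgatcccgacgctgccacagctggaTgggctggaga
Ppp2r3c: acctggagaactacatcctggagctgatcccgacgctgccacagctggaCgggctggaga
Gm4070 (chr7:105902038-105902097, minus strand) differs at 1 position from Gvin1 (chr7:106163455-106163514, minus strand), a very large interferon-inducible GTPase:
Gm4070: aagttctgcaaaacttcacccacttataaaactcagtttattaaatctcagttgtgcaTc
Gvin1: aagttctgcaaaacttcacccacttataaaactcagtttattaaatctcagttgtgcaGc
Gm14305 (chr2:176721271-176721330, plus strand), the 1 gene that was on in all control libraries and off in all CKO libraries, differs at 2 positions from Gm14308 (chr2:176623325-176623384, minus strand), Gm2026 (chr2:175978282-175978341, plus strand) and Gm4724 (chr2:175422783-175422842, minus strand), in a stretch of a C2H2 zinc finger array:
Gm14305: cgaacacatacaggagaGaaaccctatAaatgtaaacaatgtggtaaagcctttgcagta
Gm14308: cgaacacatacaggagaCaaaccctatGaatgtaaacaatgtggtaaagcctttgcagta
Gm2026: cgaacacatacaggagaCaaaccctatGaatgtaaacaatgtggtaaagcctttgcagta
Gm4724: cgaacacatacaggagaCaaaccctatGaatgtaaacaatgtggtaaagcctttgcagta
Gm3435 (chr17:15018967-15019026, plus strand) differs at 1 position from 9030025P20Rik (chr17:14987597-14987656, plus strand), a copy that the table also holds:
Gm3435: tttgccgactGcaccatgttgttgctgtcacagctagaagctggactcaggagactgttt
9030025P20Rik: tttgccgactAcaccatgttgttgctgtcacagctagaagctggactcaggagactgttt

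In CKO against control, 10 of the 74 genes rose and 6 fell, 15 were tested and did not pass, and 43 had too few reads to test. Among the 10, Gm2436 and Gm2446 had equal reads in all 11 libraries and are 1 measurement counted under both names, here and in the counts that follow. Gm2260 and Gm2274, also among the 10, are copies that can divide the same reads, so their rises are not independent. The test was edgeR's quasi-likelihood F test on the rounded expected counts with TMM scaling and a term for the label set, with Benjamini-Hochberg adjustment over all genes tested and a call at an adjusted p under 0.05. The called share was 51.6% of the 31 tested genes, beside 71.1% of all 771 tested genes in the table, of which 34.1% were called higher and 37% lower. The other predicted Gm genes stood at 54.6% of 108. The median log2 change was 0.08 over the 31 genes and -0.05 over all genes tested. A called change of at least 2-fold was found for 13 of the 31 (41.9%), beside 37.7% of all tested genes. Read counts of the groups did not overlap for 10 of the 31, or 32.3%, beside 59% of all tested genes. Only genes with enough reads in a group's worth of libraries entered the test, so these counts are not of all 74.

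The spread between libraries was estimated for each tested gene. The median biological coefficient of variation, edgeR's estimate of relative spread between libraries, was 0.305 over the 31 genes and 0.166 over all tested genes. It was 0.24 over the other predicted Gm genes tested. A called change of at least 8-fold was found for 6 of the 31 and for 27 of all 771 genes tested. Among the other predicted Gm genes it was found for 8 of 108. Gm2436 and Gm2446 are 2 of the 6. Gm2260 and Gm2274 are also among the 6, and reads can be divided between these copies, so the 6 are not independent. All 6 were among the 26 tested genes whose closest copy shared at least 50% of k-mers, and these 26 had a median coefficient of variation of 0.351. The 4 tested genes with a transcript and a lower share had a median of 0.155. Of the expected counts above 0, 91.0% were not whole numbers (by more than 0.005), beside 84.4% over all genes. That share was 55.2% for the 7 genes that shared under 10% of their k-mers with any other gene. Only 1 of these 7 had enough reads to test, Gm20939, and 10 of its 11 expected counts were not whole. The others had at most 21 reads in any library, so this share rests on low counts.

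**Figure D1:**
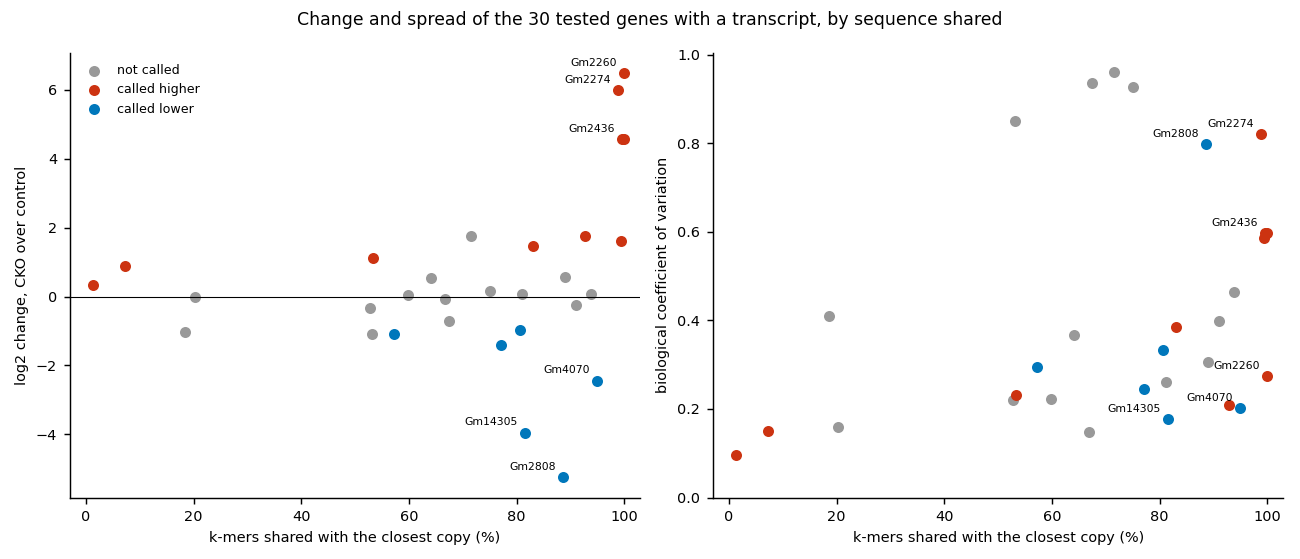
Each point is 1 of the 30 tested genes with a GENCODE transcript; the x axis is the percent of its 50-letter k-mers found in its closest copy, and the y axes are the log2 change of CKO over control (left) and the biological coefficient of variation (right). Genes with called changes of at least 8-fold all lie to the right of 80%, and the genes under 50% have coefficients of variation up to 0.409.

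Scaling bears on all of these directions. TMM gave effective library sizes of 674849 to 701138 in control and 424917 to 575334 in CKO libraries, so a gene with equal reads in both groups came out as higher in CKO. Scaling by the totals of the held reads alone, over the same 11 libraries, moved the median change of all genes from -0.05 to -0.38 on the log2 scale. With it, 15 of the 16 calls were kept with the same direction, and Gm20939 lost its call. Library totals recovered from the FPKM values, for the 9 libraries matched to a sample, gave a median of -0.32 and kept 12 of the 16 calls, all but Gm10406, Gm9780, Gm13305 and Gm20939. In limma on log2(TPM + 1) over those 9 libraries, 10 of 14 tested calls were kept, and Gm9780, Gm3604, Gm13305 and Gm20939 lost theirs. The mean transcript length, from the ratio of TPM to FPKM, was 2167 to 2294 letters in control libraries. It was 1540 to 1675 letters in CKO 1 to 3, so length differed along with the group. The cause was not tested. With a trend on gene length removed, 11 of 12 tested calls were kept, all but Gm3776. Among the genes tested and not called with TMM, these 4 scalings, in the order given, called 4, 3, 4 and 2 lower. They called 0, 1, 0 and 4 higher.

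**Figure D2:**
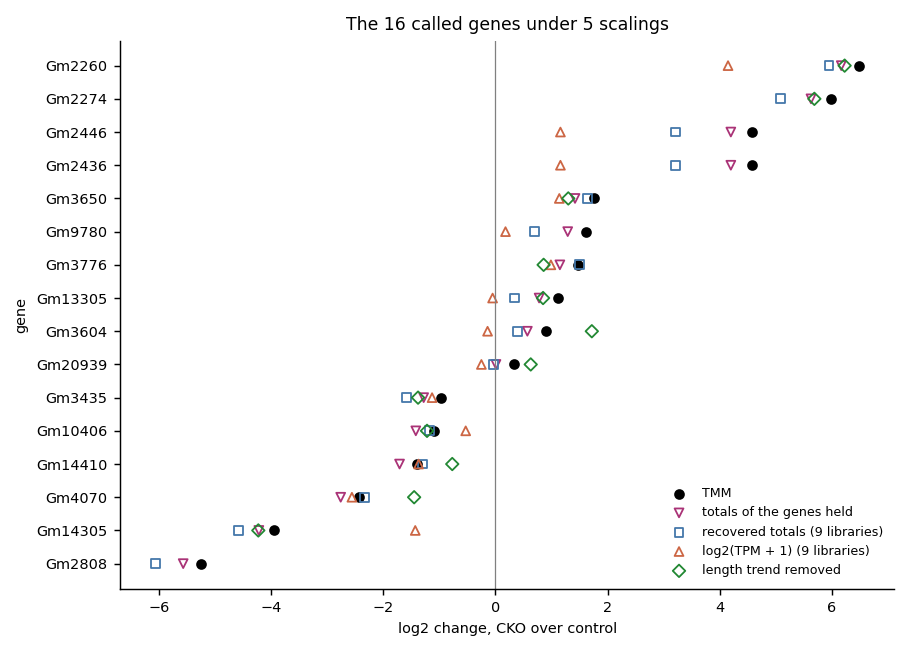
The log2 change of CKO over control (x axis) of the 16 called genes (y axis) with TMM, with totals of the held reads, with recovered library totals and log2(TPM + 1) over 9 libraries, and with a length trend removed. Gm2260, Gm2274, Gm2436 and Gm2446 stay above 0 and Gm14305 and Gm4070 below 0 in each scaling that tested them, and Gm20939, Gm3604 and Gm13305 have values on both sides of 0.

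The largest rises were those of the 2 Anxa11 copies. Gm2260 had 3.88 to 12.1 expected reads in the 6 control libraries, with a median of 9.64. In CKO libraries 1, 2, 3, 9 and 10 it had 645, 378, 839.8, 508 and 473 reads. Every CKO library lay far above every control library. The log2 change was 6.49 with a standard error of 0.29 (adjusted p = 5.55e-08, edgeR, n = 6 and 5), and the mean TPM was 0.547 ± 0.217 (SD, n = 6) in control and 29.8 ± 11.5 (SD, n = 3) in CKO 1 to 3.

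Gm2274 had 5.25 to 11.6 reads in control libraries, with a median of 9.64. In CKO libraries 1, 2, 3, 9 and 10 it had 645, 378, 5, 513 and 473 reads. It was thus high in 4 CKO libraries, to within 6 reads of Gm2260, and at the control level in CKO 3, where Gm2260 had its highest value. Its log2 change was 5.99 with a standard error of 0.87 (adjusted p = 9.22e-05, edgeR). The sum of both copies was 9.48 to 23.8 reads in control libraries and 757 to 1290.3 in CKO libraries, a log2 change of 6.29 with a standard error of 0.27 (adjusted p = 3.74e-08, edgeR). Gm2260 shared 100% of its k-mers with Anxa11, and Gm2274 98.8%. Anxa11 itself was not analysed here, so the reads of the parent cannot be set beside those of the copies.

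Gm9780, for which RefSeq gives the synonym Plac9, lies between both copies on chromosome 14. Plac9 encodes a small secreted protein. Gm9780 shared 99.4% of its k-mers with Plac9a and 61.8% with Plac9b, and its first 60 coding letters were those of Plac9b:
Gm9780: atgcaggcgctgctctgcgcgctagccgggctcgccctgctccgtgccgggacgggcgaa
Plac9b: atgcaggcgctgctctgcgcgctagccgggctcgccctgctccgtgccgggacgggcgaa
These letters stand at chr14:26042589-26042648 and chr14:26182203-26182262 in GRCm38, both on the minus strand. The 300 letters around their RefSeq starts (from 250 before to 50 after, GRCm38.p6) were identical as well.

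Gm9780 had 0 to 31.6 reads in control libraries, with a median of 23.1. In CKO libraries 1, 2, 3, 9 and 10 it had 53.4, 38.7, 61.9, 44.9 and 14.5 reads. The groups overlapped, since CKO 10 lay below 4 of the control libraries. edgeR gave a log2 change of 1.61 with a standard error of 0.52 (adjusted p = 0.017), without CKO library 9 it was 1.13 (adjusted p = 0.0562), and with recovered totals 0.69 (adjusted p = 0.264). Gm9780 and Plac9b together had 158 to 182 reads in control and 369 to 806 in CKO libraries without overlap. The sum rose by a log2 of 2.21 with a standard error of 0.20 (adjusted p = 3.36e-06, edgeR), and by 1.37 with recovered totals. It rose by 1.66 in libraries 1 to 3 and by 2.85 in the others, and edgeR's test of that difference passed (adjusted p = 5.51e-04). Gm9780 took 0 to 20% of that sum in control libraries and 1.9 to 14.8% in CKO libraries. Plac9a, its closest copy, was not analysed here, so the sum leaves out its reads.

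**Figure D3:**
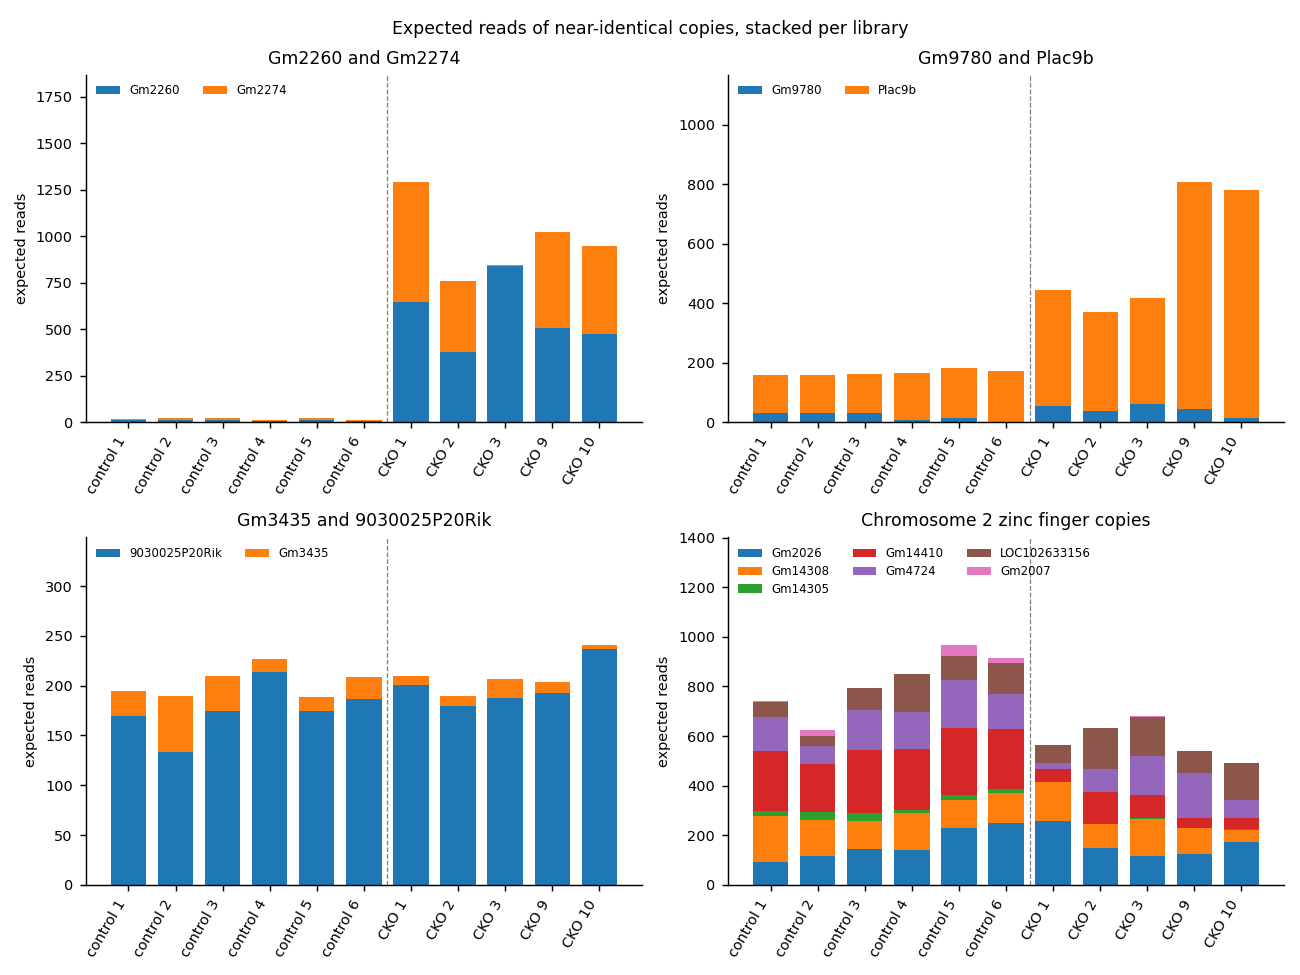
Expected reads (y axis, from 0) stacked by copy in each of the 11 libraries (x axis; the dashed line separates control from CKO) for 4 sets of near-identical genes. The sum of Gm2260 and Gm2274 is at most 23.8 in control and at least 757 in CKO libraries, with nearly all reads on Gm2260 in CKO 3, whereas the sum of Gm3435 and 9030025P20Rik lies between 188 and 241 in both groups.

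Gm2436 and Gm2446 also rose. Both had the same expected reads, to within 0.01, in 11 of 11 libraries, so they hold 1 measurement. The values were 0 to 11.96 in control libraries, with a median of 3.33. CKO libraries 1, 2, 3, 9 and 10 had 58.9, 33.1, 31.3, 124 and 145 reads. The groups did not overlap, and CKO 9 and 10 lay above CKO 1 to 3. The log2 change was 4.57 with a standard error of 0.57 (adjusted p = 3.11e-05, edgeR), and it was 3.22 with recovered totals, 3.49 in libraries 1 to 3 alone and 5.46 in the others alone. Each shared over 99% of its k-mers with the other, 99.6% for Gm2436 and 99.9% for Gm2446.

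Gm3650, on chromosome 18, shared 92.8% of its k-mers with transcripts of Spg11 on chromosome 2 and at least 50% with Eif3j1. Which of them Gm3650 was copied from was not tested. Eif3j1 encodes a subunit of translation initiation factor eIF3. Spg11 encodes spatacsin, which acts in lysosome recycling. Gm3650 had 69.2 to 162 reads in control libraries, with a median of 112. The values in CKO libraries 1, 2, 3, 9 and 10 were 277, 322, 308, 241 and 224 reads, all above the highest control. This came to a log2 change of 1.75 with a standard error of 0.19 (adjusted p = 1.11e-05, edgeR).

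Gm3776 and Gm13305 are copies of genes for a detoxifying enzyme and a cytokine receptor. Gm3776 shared 83.0% of its k-mers with Gsta1, a glutathione S-transferase, and had 13.0 to 77.8 reads in control libraries with a median of 36.9. Its CKO libraries 1, 2, 3, 9 and 10 had 81.1, 71.5, 69.6, 55.9 and 86.2 reads, so that the control library with 77.8 lay among them. The log2 change was 1.48 with a standard error of 0.35 (adjusted p = 0.00271, edgeR), a call lost with the length trend removed (0.86, adjusted p = 0.064). Gm10639, on the same chromosome, shared 39.5% of the k-mers of Gm3776 and was not tested. It had 3.34 to 20.45 reads in control libraries, 4.46 in CKO 1 and 0 in the other CKO libraries.

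Gm13305 shared 53.3% of its k-mers with Il11ra1, the interleukin-11 receptor alpha chain. It had 11.8 to 21.7 reads in control libraries, with a median of 17.9. In CKO 1, 2, 3, 9 and 10 there were 21.9, 22.7, 22.5, 42.4 and 27.1 reads, so the lowest CKO library lay just above the highest control. On the log2 scale the change was 1.11 with a standard error of 0.25 (adjusted p = 0.00213, edgeR), whereas libraries 1 to 3 of both groups alone gave 0.61 (adjusted p = 0.0935) and log2(TPM + 1) gave -0.05 (adjusted p = 0.717). Recovered totals gave 0.34 (adjusted p = 0.303). LOC100861969 had the same reads as Gm13305 in 11 of 11 libraries.

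Gm4070 had the most reads of the 74 genes in every control library, and it fell. In every CKO library Gm14548 had more. RefSeq gives Gm4070 the synonym VLIG-1, the name of the very large inducible GTPase family to which Gvin1 belongs. Gm4070 shared 95% of its k-mers with Gvin1. It had 2040 to 2965 reads in control libraries, with a median of 2497. CKO libraries 1, 2, 3, 9 and 10 had 504, 471, 448, 207 and 219 reads. The groups were wide apart, and CKO 9 and 10 lay below CKO 1 to 3. The log2 change was -2.44 with a standard error of 0.19 (adjusted p = 1.12e-06, edgeR), and the mean TPM was 31.1 ± 3.90 (SD, n = 6) in control and 4.25 ± 0.125 (SD, n = 3) in CKO 1 to 3. With the length trend removed it was -1.45 (adjusted p = 2.66e-05). The fall was larger in libraries 4 to 6, 9 and 10 (log2 change -2.96) than in libraries 1 to 3 of both groups (-2.05), and this difference passed the test, which 42.4% of all tested genes also did. Gvin1 itself was not analysed here.

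**Figure D4:**
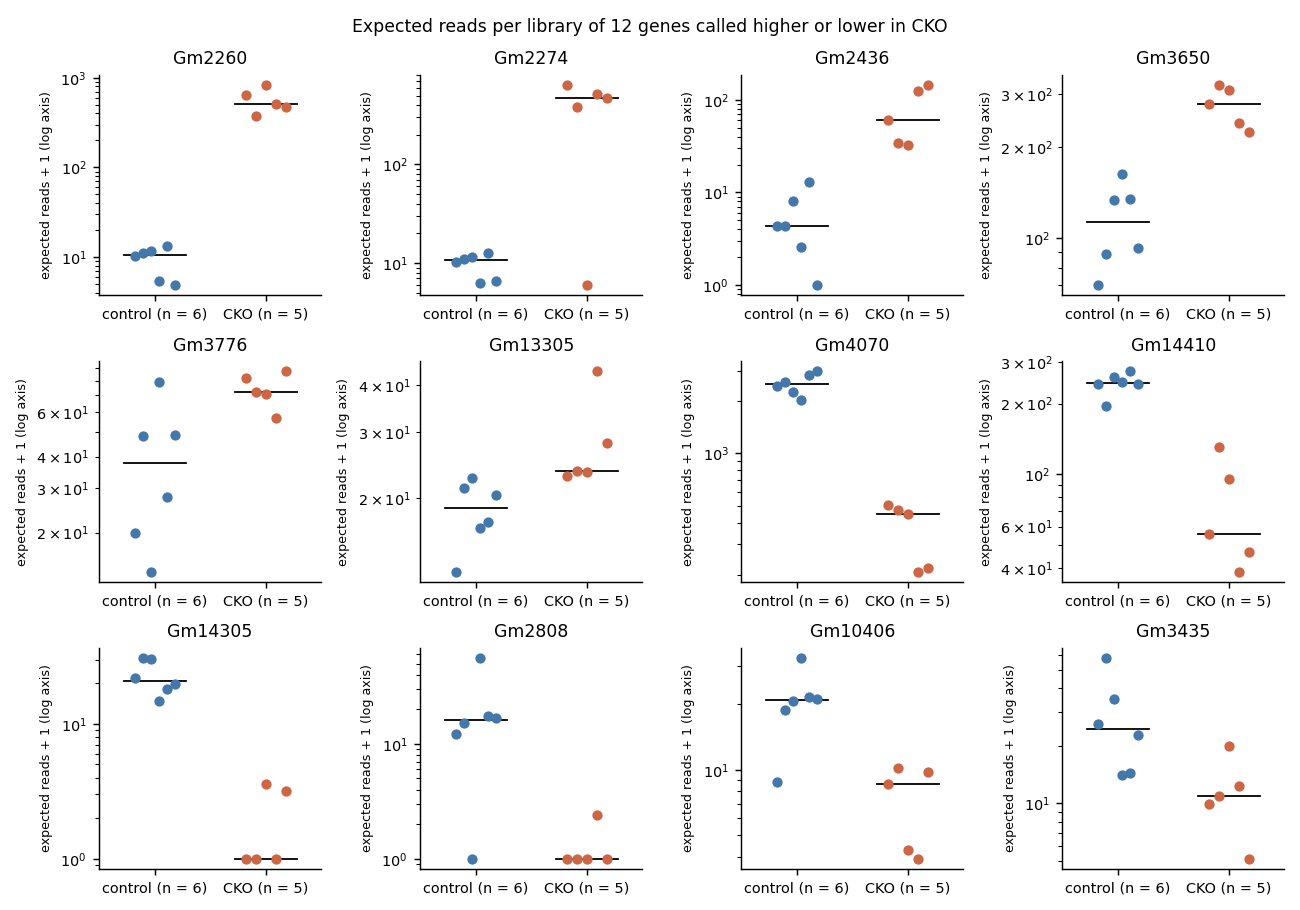
Expected reads plus 1 (log axis) of 12 called genes, with 1 point per library for control (n = 6) and CKO (n = 5) and a line at the median. Gm2274 has 1 CKO library among the control values, Gm14305 and Gm2808 fall to between 0 and 2.57 reads in CKO libraries, and the groups of Gm3435 and Gm10406 overlap.

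Chromosome 2 holds 7 of the genes, of which 6 were tested, and 2 of these fell, beside 37% of all tested genes called lower. Both belong to a group of zinc finger copies. C2H2 zinc finger proteins bind DNA through arrays of finger repeats, and many also carry a KRAB domain that recruits repressors. Gm14305 had 13.8 to 29.7 reads in control libraries, with a median of 19.8. In CKO libraries 1, 2, 3, 9 and 10 it had 0, 0, 2.57, 0 and 2.18 reads. Of the 74 genes it alone was on (10 reads or more) in every library of a group and off (3 reads or fewer) in every library of the other. That is 1.35% of these genes, beside 0.263% of the 1141 genes, where 3 met the same rule. The other 2 were also predicted Gm genes, from outside the identifier block (0.781% of those). The fitted log2 change was -3.95 with a standard error of 0.57 (adjusted p = 9.44e-05, edgeR).

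Gm14410 fell as well, from 194 to 273 reads in control libraries, with a median of 244.0. The values in CKO libraries 1, 2, 3, 9 and 10 were 54.6, 129, 94.5, 37.6 and 45.7 reads, without overlap. The log2 change was -1.40 with a standard error of 0.23 (adjusted p = 2.12e-04, edgeR), and -0.77 with the length trend removed (adjusted p = 0.00359). Its closest copy was Gm14308, with 77.1% of k-mers.

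The other copies did not pass the test. Gm2026 had 92.4 to 248 reads in control and 116 to 257 in CKO libraries (log2 change 0.56, adjusted p = 0.0823, edgeR). Gm14308 had 113 to 185 and 49.9 to 157 reads (0.08, adjusted p = 0.763). Gm4724 had 72.7 to 194 and 23.6 to 183 reads (0.06, adjusted p = 0.90). Gm14305, Gm14410, Gm2026, Gm14308 and Gm4724, with LOC102633156 and Gm2007, share at least 50% of the k-mers of either gene in a chain of pairs, and their reads were summed. Gm14434, the closest copy of Gm14305, Gm2026 and Gm14308, was not analysed here and is not in the sum. The sum was 623 to 966 in control and 491 to 680 in CKO libraries. Its log2 change was -0.02 with a standard error of 0.09 (adjusted p = 0.812, edgeR), and -0.35 with totals of the held reads (adjusted p = 0.0214). Gm14305 took 1.6 to 4.8% of the sum in control libraries and at most 0.4% in CKO libraries, and Gm14410 took 26.3 to 32.5% and 7.0 to 20.5%. LOC102633156, with 6.6 to 18% and 12.7 to 30.4%, was called higher on its own.

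Gm14295, a further zinc finger gene of that chromosome and among the 5 with the highest levels, had 171 to 347 reads in control libraries and 193, 260.4, 220.0, 115 and 147 in CKO libraries 1, 2, 3, 9 and 10. Its log2 change of 0.03 did not pass the test (adjusted p = 0.886, edgeR). Its change in libraries 1 to 3 was 0.47 and in the others -0.54.

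Gm3435 and its copy 9030025P20Rik on chromosome 17 were called in opposite directions with TMM. Gm3435 had 13.1 to 56.5 reads in control libraries, with a median of 23.4. CKO libraries 1, 2, 3, 9 and 10 had 8.99, 9.94, 18.9, 11.3 and 4.14 reads, which overlapped the control range. edgeR gave a log2 change of -0.97 with a standard error of 0.36 (adjusted p = 0.0321), and it lost its call without control 2 (-0.71, adjusted p = 0.0889), control 6, or CKO 1, 2 or 10. The call was also lost without the label set term (adjusted p = 0.0746) and without the read filter (adjusted p = 0.0537). Libraries 4 to 6, 9 and 10 alone gave -0.42 (adjusted p = 0.543), and libraries 1 to 3 alone gave -1.31 (adjusted p = 0.0245). Gm3435 shared 80.7% of its k-mers with 9030025P20Rik, which was called higher (log2 change 0.66) with TMM. Together they had 188 to 226 reads in control and 189 to 241 in CKO libraries. The sum changed by a log2 of 0.51 with TMM (standard error 0.10, adjusted p = 9.07e-04, edgeR) and by 0.19 with totals of the held reads (adjusted p = 0.0637). It changed by 0.32 in libraries 1 to 3 and by 0.75 in the others, and edgeR's test of that difference passed (adjusted p = 0.0445).

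A larger family lies on chromosome 14, where 18 of the 74 genes and 4 other genes of the table are joined by shared k-mers. They are Gm3373, Gm10406, Gm2237, Gm2897, Gm10340, Gm3005, Gm3095, Gm3636, Gm3239, Gm3264, Gm3383, Gm3488, Gm3558, Gm3591, Gm3629, Gm3667, Gm3696 and Gm3739, with Gm3173, LOC100861615, Gm2974 and Gm2956. Gm10406 alone among these 18 was called, where 71.1% of all tested genes in the table were. Gm2897, Gm3005, Gm3636, Gm3264, Gm3558 and Gm3696 were tested and did not pass, and the rest had too few reads to test. Gm10406 had 7.78 to 31.6 reads in control libraries, with a median of 19.9. In CKO libraries 1, 2, 3, 9 and 10 it had 7.65, 9.25, 3.31, 2.91 and 8.81 reads. The groups overlapped through control 1. The log2 change was -1.09 with a standard error of 0.38 (adjusted p = 0.0235, edgeR), and it lost its call without CKO 9 (-0.85, adjusted p = 0.0731), with recovered totals (adjusted p = 0.0586) and in libraries 4 to 6, 9 and 10 alone (adjusted p = 0.0628). Without any 1 of controls 2 to 6 it had too few reads to test.

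The 22 genes of this family together had 234 to 308 reads in control and 117 to 164 in CKO libraries, without overlap. Further close copies, such as Gm3002 and Gm3500, were not analysed here and are not in the sum. The summed log2 change was -0.45 with a standard error of 0.11 (adjusted p = 0.00338, edgeR), and -0.77 with totals of the held reads (adjusted p = 6.7e-05). It was -0.63 (adjusted p = 7.87e-04) in libraries 1 to 3 and -0.23 (adjusted p = 0.143) in the others, and the difference between these did not pass (adjusted p = 0.0966). The member with the most reads was Gm3636, with 68.1 to 89.1 in control and 41.4 to 68.0 in CKO libraries (log2 change -0.07, adjusted p = 0.681 with TMM, and -0.40, adjusted p = 0.0358 with totals of the held reads).

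Some genes were off in 1 library and on in another of the same group. Off was taken as 3 reads or fewer and on as 30 or more. By this rule 6 of the 74 genes (8.11%) did so, beside 6.25% of the other predicted Gm genes and 3.16% of all 1141. The 6 were Gm9780, Gm2808, Gm3264 and Gm3383 within control, Gm3696 within CKO, and Gm3055 within both groups.

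Gm3055 shared 91.1% of its k-mers with the zinc finger gene Zfp781. It had 61.8, 0, 5.45, 0, 2.35 and 0 reads in control libraries 1 to 6 and 0, 0, 56.2, 0 and 7.95 reads in CKO libraries 1, 2, 3, 9 and 10. It was high in 1 library of each group and was not tested.

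Gm2808 shared 88.7% of its k-mers with Gm2792 on chromosome 17 and at least 50% with Tulp4, a tubby-like gene. It had 11.1, 14.3, 0, 54.6, 16.4 and 15.95 reads in control libraries 1 to 6. In CKO libraries 1, 2, 3, 9 and 10 it had 0, 0, 0, 1.42 and 0 reads. Control 3 was thus as low as the CKO libraries, and without it Gm2808 would also be on in one group and off in the other. The fitted change passed the test (log2 change -5.25, standard error 1.15, adjusted p = 0.00166, edgeR), but such a fit depends on the prior count. Without any 1 control library other than control 3, Gm2808 had too few reads to test. The ratio of summed reads, 112 in control to 1.42 in CKO and rounded to whole reads, was 69.5 per effective read, with a 95% exact binomial interval of 12.2 to 2770.0 that covers counting error only.

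Gm3264, Gm3383 and Gm3696 belong to the chromosome 14 family. Gm3383 had 0 to 30.9 reads in control libraries, with a median of 10.2, and was at 0 in every CKO library except CKO 3, with 11.1. Gm3264 had 2.61 to 31.6 reads in control libraries and 0, 0, 17.1, 21.3 and 27.9 in CKO libraries 1, 2, 3, 9 and 10. Gm3696 had 0 to 22.7 reads in control libraries and 0, 26.9, 9.86, 11.9 and 33.99 in the CKO libraries in the same order. The log2 changes of Gm3264 (0.16, adjusted p = 0.855) and Gm3696 (1.76, adjusted p = 0.0692) did not pass edgeR's test.

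**Figure D5:**
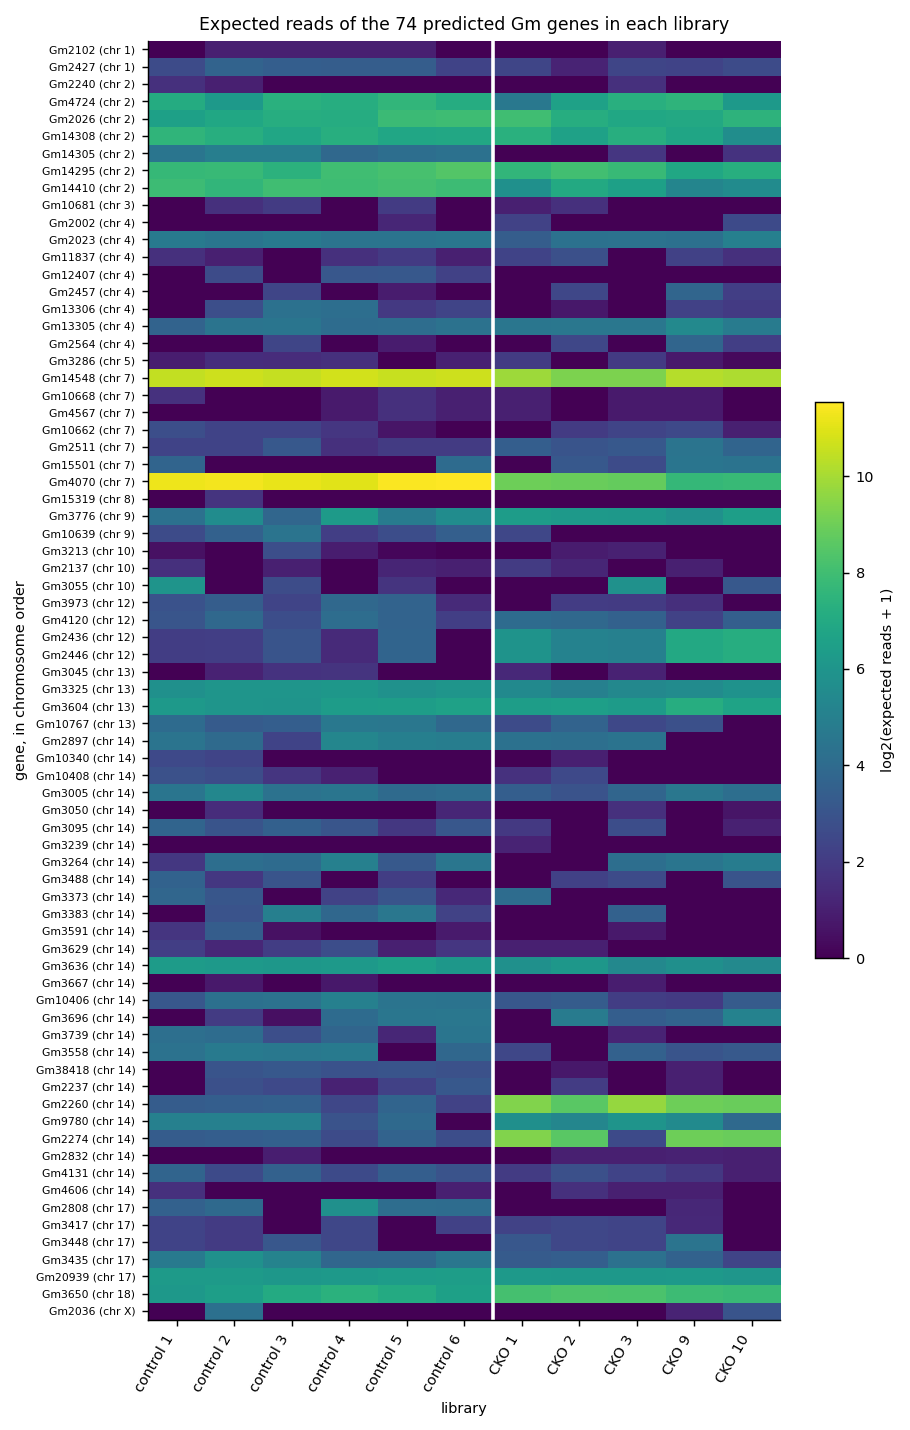
Expected reads of the 74 genes (y axis, in chromosome order) in each library (x axis, control left of the white line) as log2(expected reads + 1). Gm4070 and Gm14548 are bright in all libraries, Gm2260 and Gm2274 are bright in CKO libraries apart from Gm2274 in CKO 3, and 50 of the 74 genes are at 0 in at least 1 library.

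Other copies also shared counts. Gm2457 and Gm2564 had equal reads in 11 of 11 libraries, Gm10668 and Gm4567 in 10, and Gm3417 and Gm3448 in 7. Gm3417 and Gm3448 shared 76.9% of the k-mers of Gm3417, and in CKO 9 they had 1.54 and 20.5 reads, whereas in CKO 2 both had 4.50. Gm12407 and Gm2564 shared 72.4% and 72.2% of their k-mers with Ccl19, a chemokine that attracts lymphocytes and dendritic cells through CCR7. Gm12407 was above 0 in 4 of 6 control libraries, with at most 8.02 reads, and at 0 in all 5 CKO libraries. Gm2564 had 0, 4.43, 0, 12.5 and 3.47 reads in CKO libraries 1, 2, 3, 9 and 10. The sum of Gm12407 and Gm2564 was 0 to 8.88 in control and 0 to 12.5 in CKO libraries, which overlapped. Gm13306 shared 56.7% with the chemokine gene Ccl27a and had 0 to 18.6 reads in control and 0 to 3.76 in CKO libraries. Its held copy Ccl27b was at 0 in control libraries 1 to 5, at 9.24 in control 6 and at 0 to 8.59 in CKO libraries. Summed with Gm21586, these genes had 0 to 18.6 reads in control and 2.17 to 12.35 in CKO libraries, which overlapped. None of these genes was tested.

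Gm14548, second in mean level, lies among the paired immunoglobulin-like receptor genes of chromosome 7, which myeloid and B cells carry, and shared 52.8% of its k-mers with Pira2. It had 1412 to 1740 reads in control libraries, with a median of 1573. In CKO 1, 2, 3, 9 and 10 there were 905, 614, 615, 1205 and 1116 reads, all below every control library. With TMM the log2 change was -0.34 (adjusted p = 0.117, edgeR) and was not called, and with totals of the held reads it was -0.68 (adjusted p = 0.00179). It was also called lower with recovered totals (-1.06, adjusted p = 1.52e-04, edgeR) and with the length trend removed (-0.46, adjusted p = 0.0414, edgeR). In limma on log2(TPM + 1) it was -1.56 (adjusted p = 8.32e-06). With TMM it was -0.76 in libraries 1 to 3 and 0.16 in the others. Of 6 macrophage and monocyte markers 1 was held, Ly6c2, with 1332 to 1754 reads in control and 1514 to 3174 in CKO libraries. Of 4 red cell markers 2 were held, whose sum was 41.8 to 80.3 reads in control and 195 to 473 in CKO libraries. The part of either list in these results was not tested.

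Gm20939 and Gm3604 were called although they share little sequence. Gm20939 shared 3.7% of its k-mers with any other gene and had 67.6 to 85.1 reads in control and 65.3 to 75.8 in CKO libraries, which overlapped. Its log2 change was 0.34 with a standard error of 0.11 with TMM (adjusted p = 0.0173, edgeR), 0.01 with totals of the held reads (adjusted p = 0.929) and -0.25 in limma on log2(TPM + 1) (adjusted p = 0.057). Gm3604 shared 13.5% and had 62.3 to 94.8 reads in control and 80.7 to 146 in CKO libraries. Its log2 change was 0.90 with a standard error of 0.14 with TMM (adjusted p = 1.43e-04, edgeR) and 0.57 with totals of the held reads, but -0.14 in log2(TPM + 1), where it was not called.

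The 43 genes that were not tested had at most 61.8 reads in any library, the value of Gm3055 in control 1. Of the 74 genes, 14 had 3 reads or fewer in every library, 50 were at 0 in at least 1 library and 24 were above 0 in all 11. Zeros made up 27.9% of the 74 genes' values, beside 12.6% over the 1141 genes. The share was 20.6% for the other predicted Gm genes and 21.4% for the named genes of the same identifier block. A few of the untested genes share at least 50% of their k-mers with a held gene outside the families above. They are Gm10681 with Gm4450 (82.7%), Gm15319 with Gm21119 (82.8%) and Gm10408 with Gm8050 (54.3%), each with at most 6.33 reads in any library.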

How the data were processed

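The deposited table of the whole series was used, with 1293 rows after a last incomplete row was left out. Per the file headers it holds, for each gene and library, expected counts, FPKM and TPM values that the authors made. The submitters' processing notes name Bowtie2, RSEM, DESeq2 and build GRCm38, without their roles. The annotation and the read length are not given in the sources used here. CKO columns numbered 9 and 10 were taken as the 2 CKO libraries of the second label set, since their names match no single title.

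Expected counts were rounded and fitted in edgeR 4.0.16 (R 4.3.3) over the 1141 genes without blanks: TMM, filterByExpr on group (minimum count 10), a quasi-likelihood F test, 2-sided, with label set and group as terms, and Benjamini-Hochberg adjustment, called under 0.05. Standard errors belong to the log2 change, and ± is SD. Alternatives used DESeq2 1.42.0, limma 3.58.1 (log2(TPM + 1)), library totals recovered as the ratio of expected count to FPKM, relative to control 1, over 296 genes (0.993 to 1.01), and totals of the held reads. FPKM and TPM of CKO 9 and 10, 4 columns that match no single sample, were not used, so TPM means and recovered totals rest on 9 libraries. The whole depth of the libraries is unknown because the table holds part of it. The fit was tested on simulated data. Sequence sharing was counted in GENCODE M21 transcripts with k-mers of 50 letters (31 and 100 as alternatives), leaving out genes that overlap the gene in question. Positions come from RefSeq for GRCm38.p6 and GENCODE.

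The genes and lists were chosen with earlier results of these data known. Genes named with values were those on in one group and off in the other, the called genes with the greatest change, up to 8 in each direction (6 fell), the 5 highest mean levels, up to 6 that were off and on within a group, and those sharing at least 50% of k-mers with a held gene. Gm20939, Gm3604, the untested genes and the label-set differences named beyond this rule were chosen after their values were seen.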

Additional observations from a re-analysis of the deposited data

Results flagged for a closer look

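In 5 of the 40 groups of values looked at, 1 library stood apart from the rest of its group by Dixon's ratio, the gap to the nearest library over the whole range. Chance sets about 1 in 20 groups apart in this way, a rate that does not apply here. All 5 belong to genes named for being off and on within a group, and the ratio is 1 whenever 1 library has reads and the others none. The ratio was 0.7 for Gm2808 in control 4, with 48.5 TMM-scaled reads beside 0 to 14.5 in the other control libraries. It was 1 for Gm2808 in CKO 9, with 2.02 scaled reads beside 0. Gm3055 gave 0.915 in control 1, with 55.4 scaled reads beside 0 to 4.71, and 0.817 in CKO 3, with 59.2 beside 0 to 10.8. Gm3383 gave 1 in CKO 3, with 11.7 scaled reads beside 0.

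For 6 of the 31 tested genes (19.4%), edgeR's interaction test of label set and group passed at an adjusted p under 0.05, beside 42.4% of all tested genes. The log2 effect in the second set (controls 4 to 6, CKO 9 and 10) minus that in the first (libraries 1 to 3) was 0.93 for Gm14548 (0.16 and -0.76), -1.01 for Gm14295 (-0.54 and 0.47) and -0.92 for Gm4070 (-2.96 and -2.05). It was 1.99 for Gm3005 (0.80 and -1.19) and 0.72 for Gm3325 (0.37 and -0.35). With 1 library left out, Gm3325 passed in the fit without CKO 1 and in no other, and Gm3005 did not pass without CKO 9. The other genes named here passed in all 11 such fits. For Gm2897 the fitted difference was -8.64 (-7.87 and 0.77). CKO 9 and 10 were both at 0 there, so the fit sets no bound. Against a floor of 3 counts over both libraries, Gm2897 was at least 13.8-fold lower in them than in controls 4 to 6. The label sets differ in genotype wording, and which other features of the preparation differ with them was not tested.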

How the results depend on the processing

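The 6 genes called lower became 11 with DESeq2's Wald test, 10 with recovered totals over 9 libraries, 10 with totals of the held reads (chosen after seeing the data), and 3 after copies were summed, where families replace single genes. Leaving out 1 library gave 3 to 7 called lower and 10 to 11 called higher. The count of 3 came without control 2 and without control 6, where Gm2808 and Gm10406 fell below the read filter and Gm3435 lost its call. In limma on log2(TPM + 1), 5 were higher and 10 lower over 9 libraries. The median change of all genes was then -0.60, and 83.5% of all calls were lower, beside 52% with TMM, 65.3% with totals of the held reads, 67% with recovered totals and 39.4% with the length trend removed. Where the change was called on one side at least, signs turned for Gm14295 (-0.53 in the second label set alone), in TPM for Gm13305 (-0.05), Gm3604 (-0.14) and Gm20939 (-0.25, and -0.04 with recovered totals), and, once summed with their copies, for Gm3435 (0.51), Gm3696 (-0.45) and Gm3264 (-0.45). Without a call on either side, they also turned for Gm14548 (0.17 in the second label set alone), for Gm3264 (-1.08 to 0.89 over the settings) and for Gm14295 (-0.28 with totals of the held reads). The cause was not tested. The 1 gene on in one group and off in the other became 0 with off under 1 read and on at 5 or more, and 0 with on at 30 or more. Leaving out 1 library gave 1 to 2, with Gm2808 added without control 3. The 6 genes off and on within a group became 19 with off under 1 read and on at 10 or more, and 0 with on at 100 or more. With a replicate block over libraries 1 to 3 of both groups, 9 of these genes were higher and 5 lower, beside 9 and 6 without it, and 479 beside 499 of all genes were called. Same-numbered libraries correlated at 0.1, 0.062 and 0.232, and differently numbered ones at -0.166 to 0.05. Each same-numbered value was the highest for its libraries. With 3 libraries in each group, centred on the group mean, these values cannot settle whether the numbers pair libraries. The main fit did not pair them. Expected counts of a few reads limit what the on and off states can show.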
